A study of Mus musculus with 12 samples.

Results

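The response of the wild-type mouse colon to dextran sulfate sodium (DSS) was measured in 6 of the 12 mice of the series, 3 that drank 4% DSS for 7 days and 3 that drank plain water. The arrays were taken by their labels, wild type with DSS or wild type with water, and no array of a Parp1-/- mouse entered the comparison. All 6 mice were 6 to 8 weeks old, were labelled wild type for Parp1 and lived in 1 conventional facility kept free of common mouse pathogens; strain and sex are unknown here. RNA of the washed whole colon of each mouse, with its muscle and all other layers, was hybridised to an Affymetrix array, so each array is 1 mouse. In bulk RNA of a whole organ, more cells of a type and more RNA per cell cannot be told apart. The comparison covered 21314 genes, each read by probe sets that carried that 1 gene symbol.

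DSS is a sulfated polysaccharide that injures the epithelium of the large bowel when mice drink it. In the healthy colon a layer of mucus made by goblet cells and a sheet of joined colonocytes keep bacteria away from the tissue. When that sheet breaks, bacterial products reach pattern recognition receptors, interleukin-1 and chemokines are made, neutrophils and monocytes enter from the blood, and surviving epithelium makes antimicrobial proteins and closes the wound. The comparison of DSS with water asks which genes of the wild-type colon moved in this injury.

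The values are log2 values in which the authors' table has each probe set centred on its median over the 12 arrays of the series. A value of 0 therefore means the middle of the series for that gene, and a level can be compared between arrays but not between genes. Neither log base nor direction is stated; base 2 and larger values for more RNA were assumed. The centring also means that the colon label could not be checked by the absolute level of epithelial markers. Genes were called at a limma adjusted p (Benjamini-Hochberg over all genes) under 0.05, and an error is the standard error of the log2 difference with 3 mice per group.

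Before any gene is considered, 4 of the 6 arrays stood apart. The mean of 20 housekeeping genes, which nearly all cells use, was -1.67, -1.08 and -1.21 in water 1, 2 and 3 and -0.86 in DSS 1, but 0.01 and 0.39 in DSS 2 and 3. The 6 other arrays of the series lay between -0.0035 and 0.23. Smell receptor genes, both olfactory and vomeronasal and 1054 in number, had a median of 0.42, 0.38 and 0.39 in the water arrays and 0.38 in DSS 1, against 0.05 and -0.10 in DSS 2 and 3. In this measure DSS 1 lay among the water arrays, although its label is DSS. Spread followed the same split, with an SD of all probe sets of 0.871, 0.666 and 0.723 in water, 0.833 in DSS 1, and 0.393 and 0.350 in DSS 2 and 3. All 3 water arrays share this shift, so treatment and the shift cannot be told apart for the group as a whole; only DSS 1 has the DSS label together with water-like array measures. For that reason the value of DSS 1 is given beside many results, but not where a gene is printed only as a difference. In some of those genes DSS 1 alone stood less far above the water mean, as for Adamdec1 (1.57 against 2.66). In others it stood further above, as for Cdh1 (2.06 against 1.72).

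**Figure D1:**
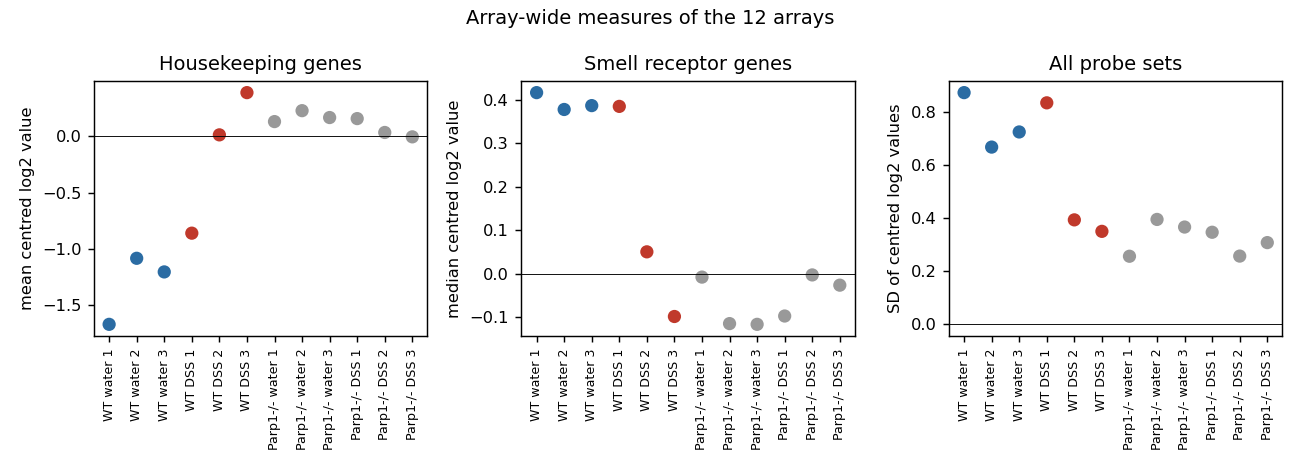
Array-wide measures of all 12 arrays of the series, 1 point per array: the mean of 20 housekeeping genes, the median of 1054 smell receptor genes and the SD over all probe sets, in centred log2 units. The 3 wild-type water arrays (blue) and wild-type DSS 1 (first red point) lie together, with a receptor median of 0.38 to 0.42, while DSS 2 and 3 lie near the other 6 arrays (grey).

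Parp1 did not separate the groups. It was at -0.41, 1.15 and 0.53 in water and at 0.01, 0.51 and 0.77 in DSS, a difference of 0.00 ± 0.41 (limma adjusted p = 0.998). The array labelled wild-type water 1 had less Parp1 than every Parp1-/- array, which ranged from -0.22 to 0.03. DSS 1, at 0.01, lay within that range, so for neither array does this gene bear out the genotype. Water 1 also had the lowest housekeeping mean of the series, -1.67. How far the array-wide shift enters its Parp1 value was not tested. Whether the Parp1 probes lie within the part deleted in the knockout is unknown here. The name water 1 below means the array so labelled.

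Of the 21314 genes, 641 were called, which is 3.01% of them. Most calls went up: 621 genes, or 2.91%, were higher in DSS and 20, or 0.0938%, were lower. The median difference of all genes was -0.05. The groups did not overlap for 23.6% of genes, and limma gave 17.1% of genes an unadjusted p under 0.05. The calls hang on single mice: without water 3 or without DSS 2 no gene was called (2796 and 2053 genes had an unadjusted limma p under 0.05), without water 1 or 2 the count was 100 and 128, and without DSS 1 or 3 it was 2755 and 406. Quantile normalization gave 343 calls. The differences themselves moved less than the calls: without water 3 and without DSS 2 Car4 differed by 2.16 and 2.10 (2.18 with all arrays), at adjusted p of 0.0619 and 0.0625, and Il1b by 4.48 and 3.74 (4.34 with all arrays), at 0.0691 and 0.0625. With array weights or with all 12 arrays in 1 model more genes were called, 4993 and 2781. The share called higher was 67.8% and 68.1% in place of 96.9%. The array weights were 0.30 for DSS 1, 7.84 for DSS 2 and 0.68 for DSS 3. The treated side of the weighted fit thus rested mostly on DSS 2. When each array's receptor median entered the fit as a covariate, 282 genes were called, 70.2% of them higher. Only DSS 1 of the DSS arrays had a receptor median like water. The covariate fit therefore drew its treatment difference mainly from DSS 1, and it is not a check separate from DSS 1 alone against water.

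The risen genes fell into unlike kinds when their position against the series was read. For 577 of the 621 the water mean was under -1, and for 528 the DSS mean was within 0.5 of the series median. Those genes, among them mucins, carbonic anhydrases and ribosomal protein genes, stood near the middle of the series in DSS and low in water. In 36 genes the DSS mean was 1 or more above the series median, so that these stood out upward in DSS. Leaving aside predicted models and small RNAs they were 33 genes: Ccl3, Il1a, Il1b, Saa3, Acod1, Lilrb4a, Cxcl2, Mmp10, Ifi205, Nos2, Mmp13, Clca4b, Wfdc17, Mmp8, Lcn2, Cyp2e1, Fcer1g, Srgn, Igsf6, Ms4a18, Plek, Cd33, Mrgpra2a, Gbp2b, Hdc, Reg3b, Hspa8, Ly6d, Arg2, Lgals3bp, Psca, Tnip3 and Nrg1. This division was made after the values were seen. With the receptor median as a covariate, 10 of the 36 and 122 of the 528 were still called.

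**Figure D2:**
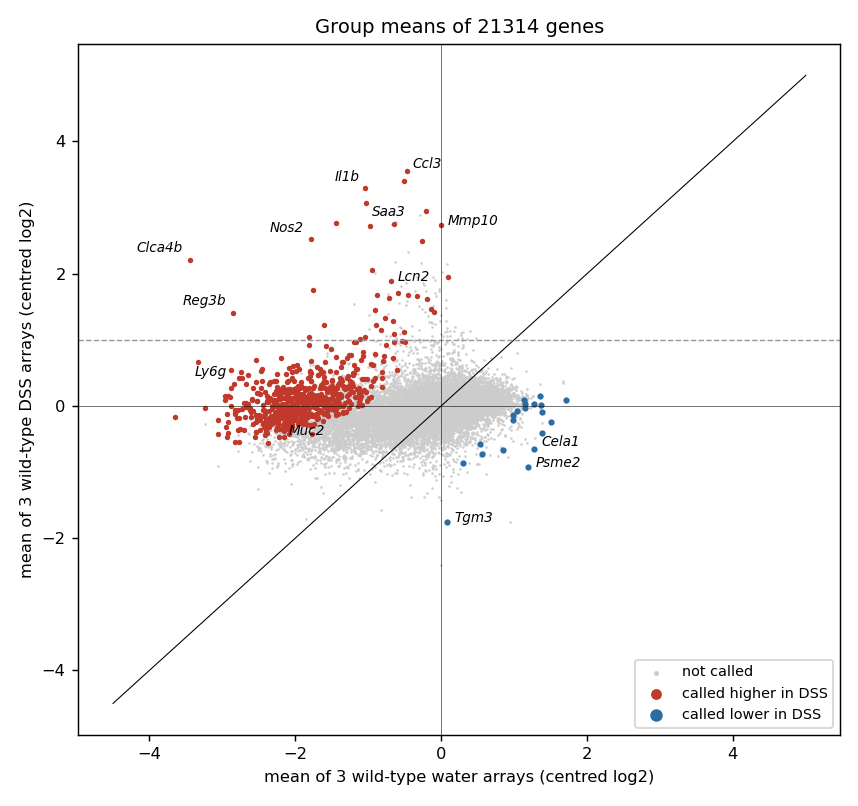
Mean of the 3 wild-type water arrays (x axis) against the mean of the 3 wild-type DSS arrays (y axis), in centred log2 units, 1 point per gene for 21314 genes; the diagonal marks equal means and the dashed line a DSS mean of 1. Most of the 621 genes called higher (red) lie at the left near a DSS mean of 0, and 36 lie above the dashed line, among them Ccl3, Il1b and Saa3.

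Clca4b, which encodes a secreted regulator of chloride channels, had the largest rise of all genes. It was at -2.61, -3.79 and -3.95 in water and at 2.31, 2.25 and 2.09 in DSS 1, 2 and 3, a difference of 5.67 ± 0.37 or 50.8-fold (adjusted p = 0.00703). The 3 DSS mice lay close together, and DSS 1 alone stood 5.76 above the water mean. Its near copy Clca4a, measured by 2 probe sets, had a difference of 0.97 ± 0.23 that was not called (adjusted p = 0.0670), and array probes may be shared by such copies. After Clca4b the largest rises were those of Il1b, Nos2, Reg3b, Lilrb4a, Saa3, Ccl3, Reg3g, Il1a, Ifi205, Cyp2e1 and Scd1, from 20.3-fold for Il1b to 11.1-fold for Scd1. These 12 were picked from called genes whose DSS arrays all lay above the water arrays. At an adjusted p under 0.05, Ccl3, Il1b, Nos2, Saa3, Lilrb4a and Clca4b were also called after quantile normalization, with array medians set equal, with robust moderation, with array weights, with all 12 arrays and with the covariate, as were 128 genes in total; at an adjusted p under 0.01 neither Ccl3 nor Il1b was called.

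**Figure D3:**
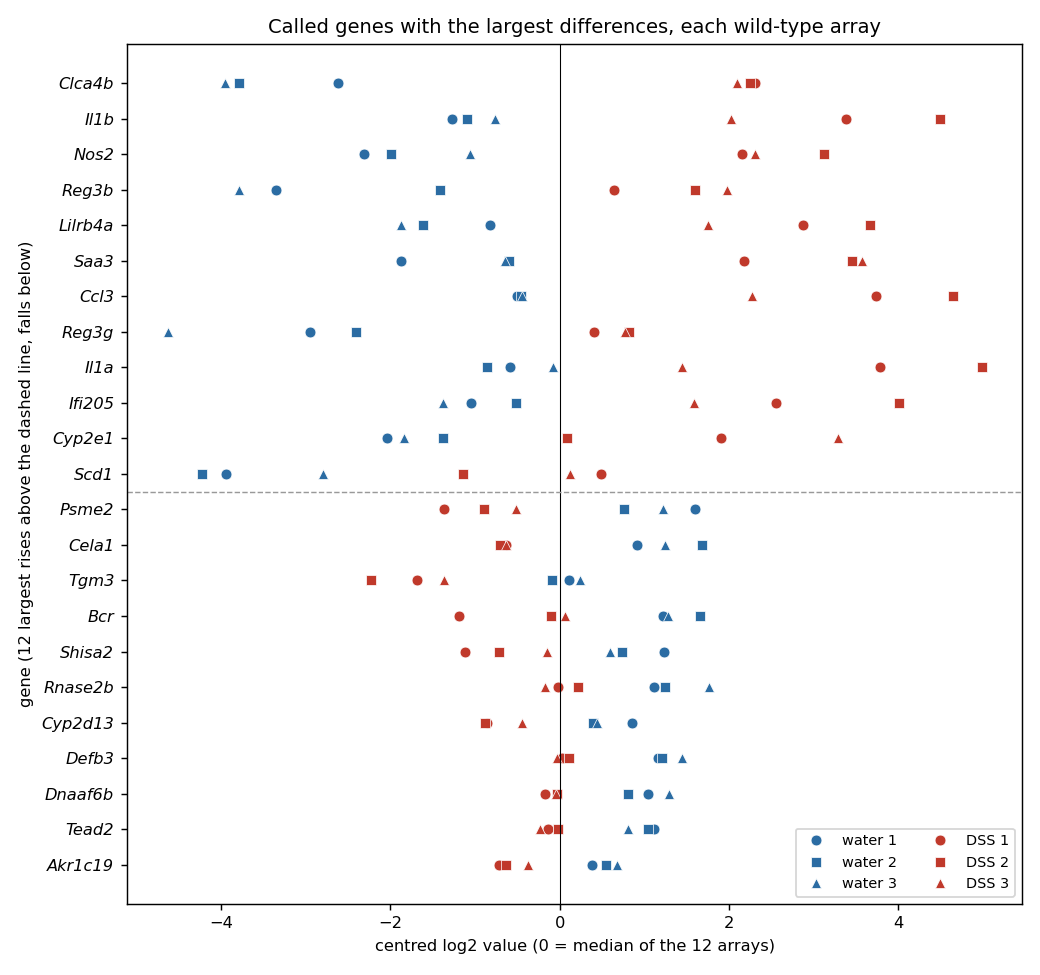
Centred log2 value of each of the 6 wild-type arrays for the 12 called genes with the largest rises (above the dashed line) and the 11 with the largest falls (below it); blue symbols are water mice 1 to 3 and red symbols DSS mice 1 to 3. Clca4b has the widest gap, from -2.61 at most in water to 2.09 at least in DSS, and Cela1 has 3 DSS values between -0.70 and -0.63; only genes whose groups do not overlap were picked.

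Each list count from here on stands beside shares over all genes of 2.91% called higher and 0.0938% called lower. Among 22 inflammatory cytokines 2 rose, both of them interleukin-1 ligands, and none fell. The list's median difference was 0.23, against -0.05 for all genes, and 1 was called with the covariate. Il1b, the secreted cytokine that is cut to its active form by the inflammasome, was at -1.27, -1.10 and -0.77 in water and at 3.38, 4.49 and 2.03 in DSS, a rise of 4.34 ± 0.56 (adjusted p = 0.0111). Il1a, which injured cells release, was at -0.58, -0.86 and -0.07 in water and at 3.78, 4.98 and 1.44 in DSS, a rise of 3.91 ± 0.78 (adjusted p = 0.0420). DSS 2 was the highest and DSS 3 the lowest of the treated mice for both. Their natural antagonist Il1rn had a difference of 1.99 ± 0.44 with an adjusted p of 0.0567, and Il1f9, interleukin-36 gamma, one of 2.07 ± 0.46 with an adjusted p of 0.0600. Both missed the threshold although their groups did not overlap. Tnf, chosen after its values were seen, was at 0.22, 3.29 and 1.94 in DSS and between -1.02 and -0.22 in water (2.37 ± 0.69, adjusted p = 0.132). Il6, chosen in the same way, was at 1.37, 2.43 and -0.48 in DSS, the last below all 3 water arrays (0.24, 0.26 and 0.30). The treated mice thus disagreed on Il6 in direction, and on Tnf in size.

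Chemokines that draw neutrophils and monocytes included 4 risen of 22 measured, against 2.91% of all genes. Their median difference was 0.83, and 1 was called with the covariate. Ccl3, a ligand of monocyte and neutrophil receptors, was flat in water at -0.50, -0.46 and -0.45 and stood at 3.73, 4.65 and 2.27 in DSS (4.02 ± 0.53, adjusted p = 0.0120). Cxcl2, a ligand of the neutrophil receptor Cxcr2, was at -0.43, -1.03 and -0.47 in water and at 2.35, 4.10 and 1.82 in DSS (3.40 ± 0.55, adjusted p = 0.0206). Cxcl16 and the B cell attractant Cxcl13 also rose, by 1.95 and 2.25, but to DSS means less than 1 above the series median. Other Cxcr2 ligands, chosen after their values were seen, moved less: Cxcl1 by 0.43 ± 0.28, Cxcl3 by 0.40 ± 0.32 and Cxcl5 by 1.20 ± 0.34, none of them called.

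The interferon-induced chemokines Cxcl9, Cxcl10 and Cxcl11, which attract activated T cells, split the treated mice. Cxcl9 was at 3.74, 4.60 and 0.01 in DSS 1, 2 and 3, and at -1.31, -0.53 and -0.01 in water. Cxcl10 was at 3.15, 4.45 and 0.63, and Cxcl11 at 3.71, 4.65 and 0.33, in the same order. DSS 3 lay next to the water arrays for all 3 genes while DSS 1 and 2 lay far above them. The differences of 3.40 ± 1.06, 3.42 ± 0.86 and 3.18 ± 0.97 missed the threshold, with adjusted p of 0.155, 0.0875 and 0.149. Cxcl9 and Cxcl11 were named after their values were seen.

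**Figure D4:**
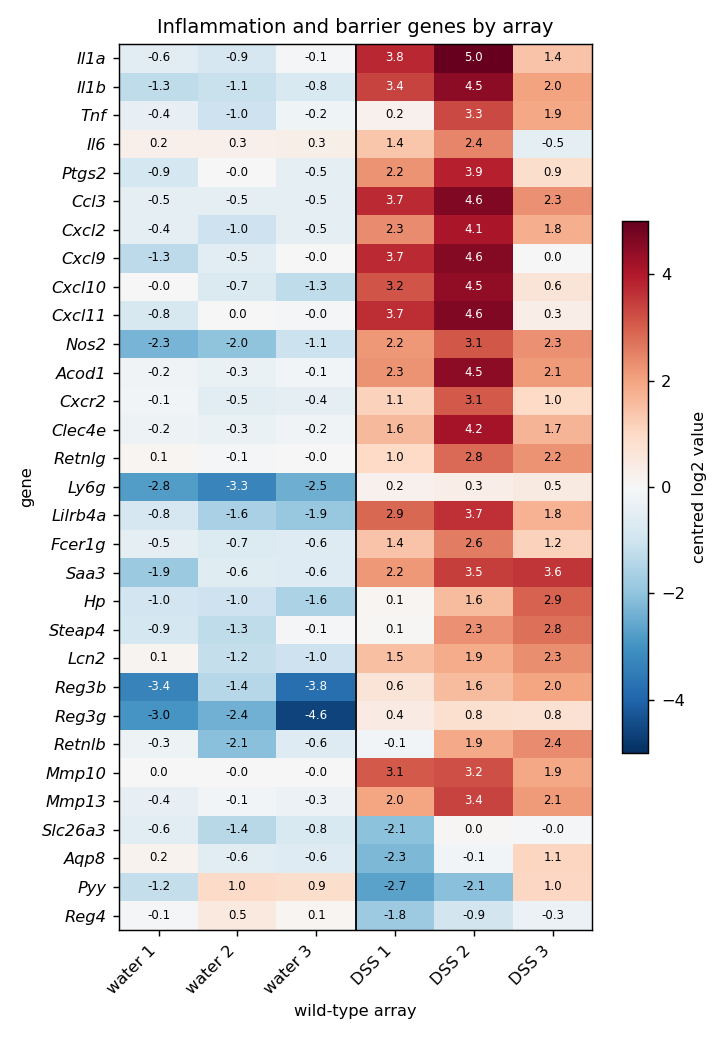
Heat map of centred log2 values of 31 inflammation and barrier genes (rows, chosen after their values were seen) in the 3 water and 3 DSS arrays of wild-type mice (columns), with the value to 1 decimal in each cell. Il1b, Ccl3, Saa3 and Nos2 are above 2 in all 3 DSS mice, Cxcl9 to Cxcl11 only in DSS 1 and 2, and Hp and Steap4 above 1 only in DSS 2 and 3.

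In the acute-phase and STAT3 list, 3 of 16 members rose and none fell, with a median of 0.46; with the covariate 1 was called and the median was 0.26. Saa3, a serum amyloid A protein made locally in inflamed tissue, was at -1.87, -0.60 and -0.64 in water and at 2.17, 3.45 and 3.57 in DSS (4.10 ± 0.48, adjusted p = 0.00870). Lcn2, lipocalin 2, which binds bacterial iron carriers, was at 0.13, -1.18 and -1.02 in water and at 1.52, 1.86 and 2.31 in DSS (2.59 ± 0.39, adjusted p = 0.0176). Here DSS 3 was the highest mouse, unlike for the interleukins. Stat3, the transcription factor downstream of interleukin-6 and interleukin-22 receptors, rose by 2.44 ± 0.41, from a water mean low in the series to a DSS mean near its middle. Haptoglobin, Hp, was at 0.09, 1.59 and 2.94 in DSS 1, 2 and 3 and between -1.57 and -0.97 in water (2.73 ± 0.63, adjusted p = 0.0676). Steap4, a metal reductase, was at 0.06, 2.27 and 2.77 in DSS, and one water array, at -0.06, lay close to DSS 1 (adjusted p = 0.115). For both genes DSS 1 was the lowest treated mouse.

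Cytokine and chemokine receptors had 3 risen members of 24 and a median of 0.51, which was 0.80 without DSS 1, 0.09 with DSS 1 alone and 0.07 with the covariate, where 1 member was called. Osmr, the oncostatin M receptor, was at -1.97, -1.32 and -1.44 in water and at 0.68, 1.30 and 0.72 in DSS (2.48 ± 0.29, adjusted p = 0.00870). Il22ra1, the epithelial subunit of the interleukin-22 receptor, rose by 1.83 ± 0.28 and the interferon-gamma receptor Ifngr1 by 1.96 ± 0.37. The neutrophil receptor Cxcr2 was at 1.15, 3.06 and 1.01 in DSS and below 0 in water (2.11 ± 0.52, adjusted p = 0.0830).

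Within the NF-kappaB list, where the proteins carry inflammatory signals to the nucleus or shut them off again, 2 of 17 members rose. Tnip3, a feedback inhibitor, was at -1.45, -2.07 and -1.92 in water and at 0.31, 1.50 and 1.34 in DSS (2.86 ± 0.36, adjusted p = 0.0105). Rel, the c-Rel subunit, was at -2.19, -2.15 and -1.75 in water and at 0.21, 1.20 and 0.40 in DSS (2.64 ± 0.31, adjusted p = 0.00920). The subunit Rela and the inhibitor Nfkbia had differences of 1.54 ± 0.45 and 1.47 ± 0.45, neither called. The list's median of 0.58 turned to -0.11 with the receptor median as a covariate and to -0.08 with DSS 1 alone against water, while both Tnip3 and Rel stayed called with the covariate.

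Promoters of the genes that stood out upward in DSS were searched for 3 short motifs, on both strands of the 250 bases before the start of each gene in RefSeq's table (mouse assembly GRCm38.p6). The NF-kappaB motif, searched as GGGAANNNCC, was in 3 of the 28 promoters matched for those 36 genes, or 10.7%. The share was 5.42% for the 19977 promoters of measured genes and 4.94% for all 32851 promoters. The interferon motif, GAAANNGAAA, which interferon regulatory factors bind, was in 6 of the 28, or 21.4%, against 2.81% of measured genes and 2.98% of all. The AP-1 motif, TGANTCA, was in 3 of the 28, or 10.7%, against 6.15% of measured genes and 6.75% of all. For all 587 matched promoters of genes called higher the shares were 7.67%, 4.94% and 5.45%. These matches are a description of the letters and not a test of binding. Examples are printed from RefSeq because they belong to risen genes described here, 5′ to 3′ on the strand of the gene, with the motif in capitals; where the capitals do not read as the motif, it lies on the other strand.
Cxcl2 (NF-kappaB, chr5:90903782-90903831, plus strand): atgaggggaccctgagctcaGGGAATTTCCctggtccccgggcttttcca
Tnip3 (NF-kappaB, chr6:65590324-65590373, plus strand): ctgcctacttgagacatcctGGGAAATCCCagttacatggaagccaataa
Gbp2b (interferon, chr3:142594690-142594739, plus strand): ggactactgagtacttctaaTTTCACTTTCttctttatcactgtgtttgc
Ifi205 (interferon, chr1:174031860-174031909, minus strand): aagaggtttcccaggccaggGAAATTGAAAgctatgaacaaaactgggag
Mmp10 (AP-1, chr9:7502259-7502305, plus strand): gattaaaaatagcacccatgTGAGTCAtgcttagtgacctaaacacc
Mmp13 (AP-1, chr9:7272459-7272505, plus strand): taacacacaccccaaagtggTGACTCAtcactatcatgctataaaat
The Cxcl2 motif begins 97 bases before the gene's start and overlaps a match on the other strand by all but 1 base. Mmp13 also holds an interferon match, from 146 to 137 bases before its start.

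Interferon-gamma GTPases, which attack vacuoles that hold microbes, had no called member among 14, with a median of 0.69 (limma gave 5 an unadjusted p under 0.05, against 17.1% of all genes). Gbp2b, a guanylate-binding protein outside that list, was at -1.38, -0.95 and -0.38 in water and at 1.39, 2.41 and 0.55 in DSS (2.36 ± 0.48, adjusted p = 0.0448). Irgm2 came closest within the list: it was at 0.71, 2.38 and 0.92 in DSS and between -1.10 and -0.41 in water (2.12 ± 0.45, adjusted p = 0.0511). The list's mean was 0.29, 1.49 and 0.51 in DSS 1, 2 and 3 and between -0.12 and -0.11 in water, so DSS 2 stood highest. Of 21 genes of the type I interferon response 1 rose, against 2.91% of all genes. It was Ifit1, which binds foreign RNA and rose by 1.61 ± 0.34 (limma adjusted p = 0.0489). With the covariate none of the 21 was called higher and 1 was called lower. Ifi205, which belongs to a family of like DNA sensor genes whose probes may be shared, was at -1.05, -0.51 and -1.38 in water and at 2.55, 4.01 and 1.59 in DSS (3.70 ± 0.57, adjusted p = 0.0180).

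Neutrophil genes had 2 called members of 24, but a median difference of 1.04, and 13 of the 24 had all DSS arrays above all water arrays, as had 11.4% of all genes. Ly6g, a surface marker of neutrophils, was at -2.79, -3.28 and -2.45 in water and at 0.21, 0.32 and 0.45 in DSS (3.17 ± 0.27, adjusted p = 0.00870). Its DSS values stood near the series median, and probes for Ly6 family genes may be shared. Mmp8, the neutrophil collagenase, was at -0.02, 0.02 and 0.29 in water and at 1.15, 2.70 and 1.98 in DSS (1.85 ± 0.39, adjusted p = 0.0483). Further members with separated groups missed the threshold: Clec4e, a sensor of damaged cells, at 2.74 ± 0.63 (adjusted p = 0.0656), and Retnlg, made by neutrophils, at 2.02 ± 0.44 (adjusted p = 0.0573). S100a8, a subunit of calprotectin, was at 0.19, 1.32 and 1.41 in DSS against -0.16 to 0.06 in water (1.02 ± 0.35, adjusted p = 0.194). Its partner S100a9 had a difference of 0.59 ± 0.27. Both were named after their values were seen.

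Of 28 monocyte and macrophage genes 4 rose and none fell, with a median of 0.66; with the covariate 1 was called. Lilrb4a, an inhibitory receptor of myeloid cells with a near-identical neighbour that may share its probes, was at -0.83, -1.61 and -1.88 in water and at 2.87, 3.66 and 1.76 in DSS (4.20 ± 0.50, adjusted p = 0.00895). The signalling adaptors Fcer1g and Tyrobp rose by 2.31 ± 0.37 and 2.14 ± 0.44, and the lysosomal protein Cd68 by 1.54 ± 0.25. C1qb, a complement subunit of resident macrophages, was at -0.28, 0.27 and 0.94 in DSS and between -1.24 and -1.02 in water (adjusted p = 0.0641). C1qa, another chain of the same complex, went the other way and had the lowest difference of the list, -0.60. Some of the 36 genes with a high DSS mean, named after their values were seen and in no list, are known from myeloid cells. Acod1, which makes itaconate in activated macrophages, was at -0.18, -0.32 and -0.13 in water and at 2.26, 4.48 and 2.11 in DSS (3.16 ± 0.58, adjusted p = 0.0316). Plek, Igsf6, Cd33, Srgn and Wfdc17 rose 5.06-fold, 5.87-fold, 3.49-fold, 4.37-fold and 7.98-fold. Their highest DSS value was in DSS 2 in every case.

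Of the lymphocyte lists neither had a call. None of 22 T and NK cell genes and none of 17 B and plasma cell genes was called, with medians of -0.09 and -0.12; limma gave 4 and 1 of them an unadjusted p under 0.05, against 17.1% of all genes, and the T and NK median was 0.03 after quantile normalization and 0.05 with the covariate. At an unadjusted limma p their smallest were Cd3e, at 1.24 ± 0.35, and Cd3d, at -0.66 ± 0.25, 2 chains of the same receptor with opposite signs. MHC class II and dendritic cell genes also had no call among 14, and 2 had an unadjusted limma p under 0.05. Cd80, a costimulatory ligand, was at 2.20, 3.93 and 0.33 in DSS 1, 2 and 3, and H2-Ab1, a class II chain, at -2.09, 0.56 and 0.92. In mast cell and eosinophil genes 1 of 14 rose, Hdc, the histamine-making enzyme, by 1.52 ± 0.28 (adjusted p = 0.0306), while the mast cell tryptase Tpsb2 was lower by 0.69 without a call.

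Antimicrobial and bacteria-segregating proteins had 6 risen members of 26, and none called lower; with the covariate 3 were called higher and 1 lower. Reg3b and Reg3g, antibacterial lectins that the epithelium secretes, were at -3.35, -1.42, -3.79 and at -2.95, -2.40, -4.63 in the water arrays. In DSS they stood at 0.65, 1.60, 1.98 and at 0.40, 0.81, 0.77. The rises were 4.26 ± 0.62 (19.2-fold, adjusted p = 0.0160) and 3.99 ± 0.53 (15.9-fold, adjusted p = 0.0120), and their like sequences may share probes. Nos2, the inducible nitric oxide synthase, was at -2.31, -1.99 and -1.06 in water and at 2.15, 3.12 and 2.30 in DSS (4.31 ± 0.40, 19.9-fold, adjusted p = 0.00870). Lypd8, which keeps flagellated bacteria out of the inner mucus, and Zg16, a lectin of the mucus, rose by 2.38 and 1.72 to values near the series median. In 2 of the 26, Ang4 and Reg4, the DSS arrays were all below the water arrays, as they were in 2591 of all 21314 genes. Neither was called. Ang4, an antimicrobial ribonuclease, differed by -0.94 ± 0.26 (adjusted p = 0.119) and Reg4, named after its values were seen, by -1.16 ± 0.40 (adjusted p = 0.191). Retnlb, a goblet cell resistin made against parasites and bacteria, was at -0.12 in DSS 1 but at 1.90 and 2.36 in DSS 2 and 3.

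In the Clca family 3 of 8 members rose: Clca4b as above, Clca3b by 2.64 ± 0.30 and Clca1, a goblet cell product, by 1.66 ± 0.31. Clca3b was at -1.78, -2.42 and -2.59 in water and at 0.55, 0.59 and -0.01 in DSS. The family's median of 0.83 changed little with the covariate, at 0.81, or with DSS 1 alone, at 0.77.

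Goblet cell and mucus genes had the most calls of any list, 8 risen of 23, and the highest median, 1.31. Muc2, the gel-forming mucin of the colon, was at -2.19, -1.99 and -2.40 in water and at -0.27, -0.01 and 0.01 in DSS (2.10 ± 0.23, adjusted p = 0.00870). Muc13, a membrane mucin, rose by 2.46 ± 0.26, Agr2, an isomerase needed for mucin folding, by 1.95 ± 0.28 and Klk1, a kallikrein protease, by 2.37 ± 0.25. None of these reached a DSS mean of 0.5: in DSS they stood at the middle of the series. The housekeeping genes had a median of 1.16 in the same comparison, with 2 of 20 called, Rpl4 and Ywhaz. With DSS 1 alone against water the goblet median was 0.39 and with the covariate 0.35, and 4 of the 23 were called with the covariate. Fcgbp, a mucus protein named after its values were seen, was at -1.70 in DSS 1, like the water arrays at -1.87 to -1.76, and at -0.73 and 0.05 in DSS 2 and 3.

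Colonocyte genes of transport and the brush border had 4 risen of 28, with a median of 0.95 that turned to -0.06 with the covariate and to -0.02 with DSS 1 alone. Car1 and Car4, carbonic anhydrases of the surface epithelium, rose by 2.09 ± 0.23 and 2.18 ± 0.22. Both had all 3 DSS arrays between -0.11 and 0.31 and all water arrays at -1.74 or lower. Slc26a3 and Aqp8, the chloride exchanger and the water channel of the surface cells, were named after their values were seen because DSS 1 lay on the other side. Slc26a3 was at -0.57, -1.37 and -0.75 in water, at -2.06 in DSS 1 and at 0.04 and -0.04 in DSS 2 and 3. Aqp8 was at 0.17, -0.55 and -0.64 in water, at -2.27 in DSS 1 and at -0.12 and 1.09 in DSS 2 and 3. DSS 1 had the lowest value of the 6 arrays for both. The list's mean was -1.05 in DSS 1, within the water range of -1.28 to -0.85, and -0.02 and 0.50 in DSS 2 and 3.

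**Figure D5:**
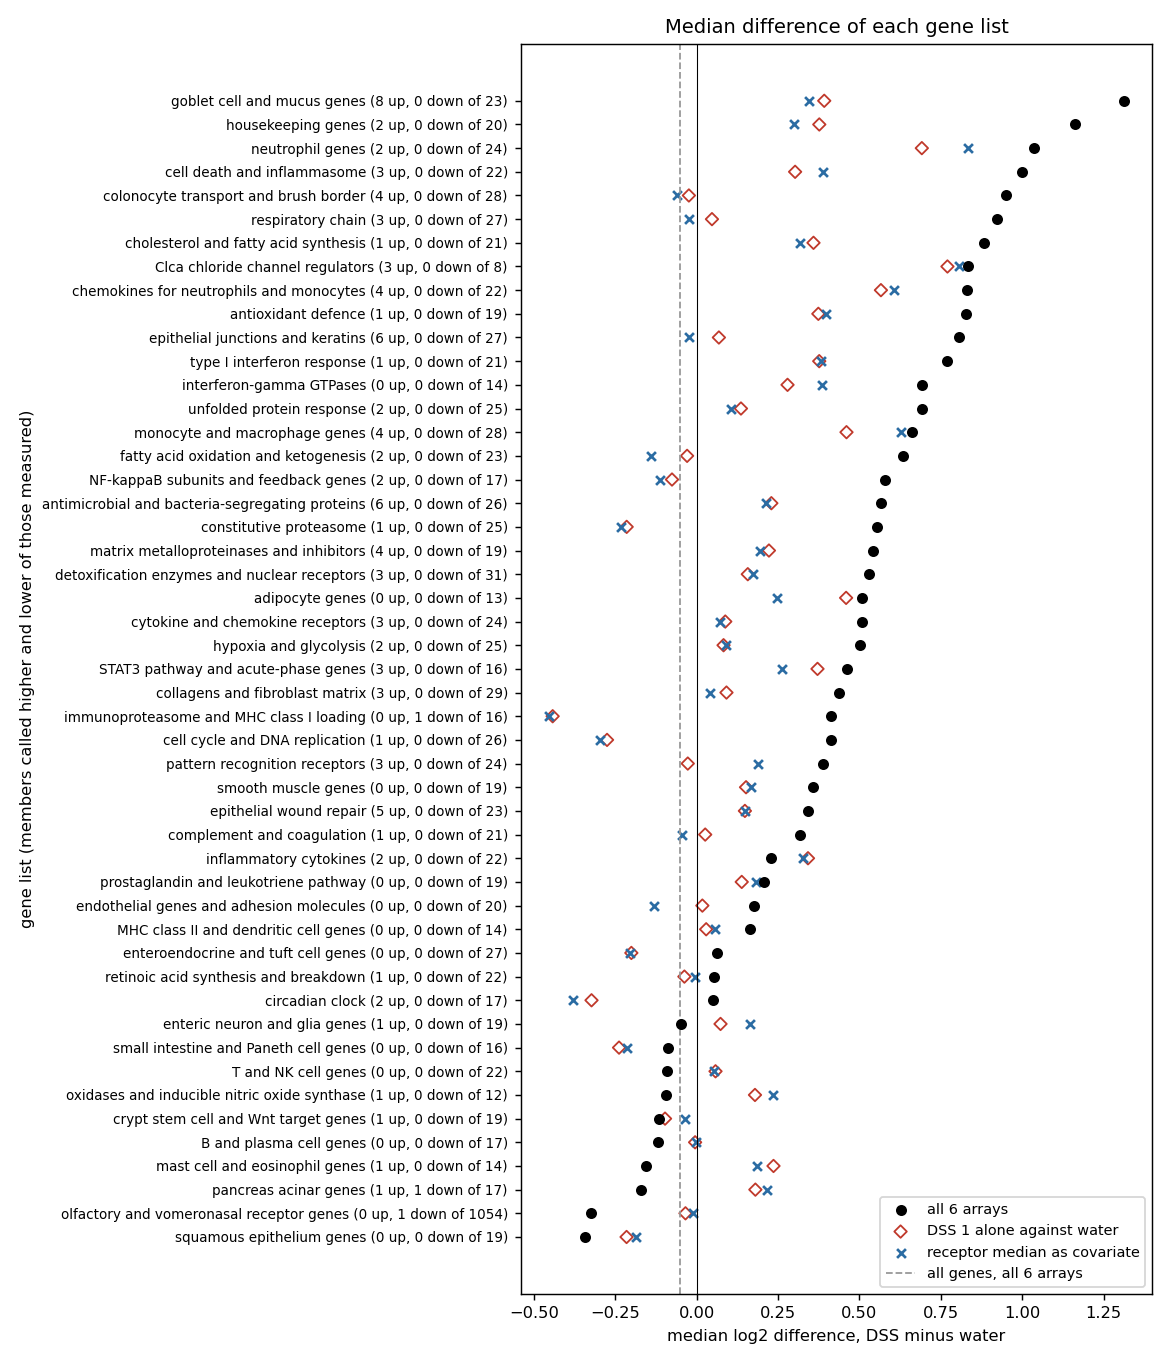
Median log2 difference (DSS minus water, x axis) of each gene list (y axis, with the members called higher and lower of those measured), with all 6 arrays (black), with DSS 1 alone against the 3 water arrays (red diamonds) and with the receptor median as a covariate (blue crosses); the dashed line is the median of all genes, -0.05. The goblet list is highest at 1.31, followed by the housekeeping genes at 1.16. Medians of the Clca, neutrophil, macrophage and chemokine lists stay at 0.46 or more in all 3 settings. With the covariate the colonocyte list turns to -0.06 and the NF-kappaB list to -0.11. DSS 1 alone and the covariate fit both lean on DSS 1, so they are not separate checks.

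Junction and keratin genes had 6 risen of 27, including the desmosome protein Dsp by 2.42 ± 0.40, the cadherins Cdh17 and Cdh1 by 2.29 and 1.72, and Epcam, a pan-epithelial adhesion protein, by 1.74. With the covariate none of the 27 was called, and their median of 0.80 turned to -0.02. Crypt stem cell and Wnt target genes had 1 risen of 19, Prom1, against 2.91% of all genes, and a median of -0.12. Cell cycle genes had 1 risen of 26, the kinase Cdk1, by 1.81 ± 0.38; their median of 0.41 turned to -0.30 with the covariate and to -0.28 with DSS 1 alone. Among enteroendocrine and tuft cell genes none of 27 was called, and 3 had an unadjusted limma p under 0.05, against 17.1% of all genes. Pyy, the peptide hormone of the lower bowel, named after its values were seen, was at -2.67 and -2.08 in DSS 1 and 2 but at 1.03 in DSS 3, above all water arrays.

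Wound repair genes had 5 risen of 23, and 1 was called with the covariate. Itga2, the collagen-binding integrin of migrating epithelium, was at -2.83, -2.60 and -3.48 in water and at -0.37, 0.33 and 0.51 in DSS (3.13 ± 0.34, adjusted p = 0.00870). The annexin Anxa3 rose by 2.37 ± 0.40, the urokinase receptor Plaur by 2.16 ± 0.37, the cornified envelope protein Sprr1a by 1.82 ± 0.30 and the trefoil peptide Tff3 by 1.54 ± 0.32. Plaur reached 1.48 and 1.24 in DSS 2 and 3, above the series median, and 0.19 in DSS 1. Nrg1, a stromal growth factor for the epithelium, was at 0.40, 2.03 and 0.69 in DSS and between -1.20 and -0.78 in water (2.09 ± 0.42, adjusted p = 0.0433).

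Matrix metalloproteinases and related enzymes had 4 risen of 19, and 1 was called with the covariate. Mmp10, stromelysin 2 of wound edges, was flat in water at 0.01, -0.02 and -0.01 and stood at 3.06, 3.24 and 1.92 in DSS (2.75 ± 0.36, adjusted p = 0.0120). Mmp13, a collagenase, was at -0.39, -0.12 and -0.28 in water and at 1.98, 3.39 and 2.12 in DSS (2.76 ± 0.38, adjusted p = 0.0141). For these genes the water mice were near the series median and the DSS mice far above it. Adamdec1, a protease of gut macrophages and stroma, rose by 2.66 ± 0.53, and the fourth risen member was Mmp8. The inhibitor Timp1, named after its values were seen, was at 0.19, 1.64 and 0.24 in DSS and between -0.54 and -0.12 in water (0.99 ± 0.41, adjusted p = 0.266). Collagen and fibroblast genes had 3 risen of 29, thrombospondin Thbs1 by 2.47 ± 0.32, decorin Dcn by 2.17 ± 0.38 and vimentin Vim by 1.48 ± 0.26. No collagen gene was among them. With the covariate none of the 29 was called, and the list's median of 0.44 was 0.04.

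Sensors and death genes moved in part. Of 24 pattern recognition genes 3 rose: Ly96, the partner of the endotoxin receptor, by 3.01 ± 0.35, Tlr3 by 2.25 ± 0.44 and the adaptor Myd88 by 2.03 ± 0.34. The list's median of 0.39 turned to -0.03 with DSS 1 alone, and 1 member was called with the covariate. Ly96 was at -2.76, -2.50 and -2.09 in water and at 0.49, 1.20 and 0.00 in DSS. In the list of cell death and inflammasome genes 3 of 22 rose, Casp8 by 2.12, the inflammasome adaptor Pycard by 2.03 and the cell cycle inhibitor Cdkn1a by 1.68. Prostaglandin and leukotriene genes had no call among 19, with 5 at an unadjusted limma p under 0.05 against 17.1% of all genes; Ptgs2, the inducible cyclooxygenase, was at 2.24, 3.87 and 0.88 in DSS and between -0.88 and -0.02 in water (2.79 ± 0.67, adjusted p = 0.0762).

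Genes of metabolism were called singly or in pairs in most lists. Of all genes 2.91% were called higher, so a single call says little about a list. Scd1, the fatty acid desaturase, was at -3.94, -4.22 and -2.79 in water and at 0.49, -1.14 and 0.12 in DSS (3.48 ± 0.51, adjusted p = 0.0160), the only call among 21 lipid synthesis genes. Cyp2e1, a cytochrome of small-molecule oxidation also high in fat cells, was at 1.90, 0.08 and 3.29 in DSS and between -2.04 and -1.37 in water (3.51 ± 0.70, adjusted p = 0.0421). Both genes were lowest in DSS 2 among the treated mice. Of 13 adipocyte markers none was called (4 at an unadjusted limma p under 0.05, against 17.1% of all genes). Fabp4, a fatty acid carrier of fat cells, was at -3.27, -4.01 and -2.42 in water and at -0.20, -1.90 and 1.26 in DSS, and the list's mean was 0.04, -0.69 and 0.57 in DSS 1, 2 and 3. The part of fat tissue in these values was not tested. Egln3, an oxygen-sensing hydroxylase induced in hypoxia, was at -2.53, -2.03 and -2.04 in water and at 1.11, 0.88 and 0.19 in DSS (2.93 ± 0.31, adjusted p = 0.00870), 1 of 2 risen among 25 hypoxia and glycolysis genes. Dhrs9, which oxidises retinol-like alcohols, rose by 2.37 ± 0.45 as the only call of 22 retinoic acid genes. The antioxidant regulator Nfe2l2 rose by 2.18 ± 0.22, the only call among 19 antioxidant genes. That list's median was 0.83, or 0.40 with the covariate, and its lowest member was Nqo1 at -0.63. Of 25 genes of the unfolded protein response 2 rose, the chaperone Canx by 2.18 ± 0.25 and the stress sensor Ern1 by 1.82 ± 0.36. Detoxification enzymes and nuclear receptors had 3 risen of 31, Cyp2e1, the carboxylesterase Ces2e by 1.91 ± 0.37 and Cyp2c55 by 1.73 ± 0.31. Fatty acid oxidation genes had 2 risen of 23, Acaa2 and Hadh, with a median of 0.63 that turned to -0.14 with the covariate, and constitutive proteasome genes 1 of 25, Psmd2, with a median of 0.55 that turned to -0.23.

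Respiratory chain genes of the nucleus had 3 risen of 27, Uqcrb, Uqcrc2 and Cycs, and a median of 0.92 that turned to -0.02 with the covariate. Of 10 genes of the mitochondrial genome, counted after their values were seen, 9 were called higher, among them ND1 by 2.17 ± 0.25 and COX3 by 2.21 ± 0.27. All 9 had DSS 1 at or above -0.45 and the water arrays at -1.51 or lower, so that here DSS 1 did not resemble water. ND6, the gene on the other strand of that genome, was at 4.73, 1.29 and -0.00 in DSS 1, 2 and 3 and was not called. Of 17 clock genes Npas2 and Clock, paralogs of the positive arm, rose by 2.46 ± 0.28 and 2.29 ± 0.27, while the clock output gene Dbp was at -1.14, -0.76 and -0.07 in DSS and at 0.52, 1.12 and 0.82 in water (-1.48 ± 0.33, adjusted p = 0.0600).

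Falls were few and of no single kind. Psme2, the beta subunit of the interferon-inducible proteasome activator, was at 1.60, 0.76 and 1.22 in water and at -1.37, -0.89 and -0.51 in DSS, so it fell by 2.12 on the log2 scale (SE 0.32, adjusted p = 0.0176). It was the 1 call among 16 immunoproteasome and class I genes, whose median of 0.41 turned to -0.45 with the covariate. Cela1, an elastase, was at 0.92, 1.68 and 1.24 in water and at -0.63, -0.70 and -0.63 in DSS (fell by 1.93, SE 0.26, adjusted p = 0.0123). Tgm3, a transglutaminase of cornified and surface epithelium, was at 0.11, -0.09 and 0.24 in water and at -1.68, -2.23 and -1.36 in DSS (fell by 1.84, SE 0.28, adjusted p = 0.0180). For Tgm3 the water arrays were near the series median and the DSS arrays clearly under it. Bcr, Shisa2, Rnase2b, Cyp2d13, Defb3, Dnaaf6b, Tead2 and Akr1c19 also fell, by 1.80 for Bcr to 1.11 for Akr1c19, and in Defb3, Dnaaf6b, Tead2 and Rnase2b the DSS arrays were near 0 and the water arrays high. The remaining 9 of the 20 falls were predicted models, clones, small RNA or receptor genes. Sycn, a protein of pancreas secretory granules, had a larger difference than these but was not called: it was at -4.57, -2.51 and -0.13 in DSS and between -0.41 and 0.45 in water.

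Markers of tissue that a colon sample may carry with it were read for each group. Over all genes limma called 3.01% and gave 17.1% an unadjusted p under 0.05, and the counts here stand beside these shares. Of 17 pancreas acinar genes Cela1 was the 1 called lower and Zg16, which the colon itself makes in goblet cells, the 1 called higher; the list's mean was 0.03 to 0.10 in water and -0.22 to -0.05 in DSS. None of 19 squamous epithelium genes was called (3 at an unadjusted limma p under 0.05), with a mean of 0.30 to 0.44 in water and 0.30, 0.00 and -0.13 in DSS 1, 2 and 3, an order that the receptor median also has. None of 19 smooth muscle genes was called (2 at an unadjusted limma p under 0.05). Their mean was -0.80, -0.20 and -0.48 in water and -0.32, -0.15 and 0.11 in DSS, and their median difference of 0.36 was -0.01 after quantile normalization. Small intestine and Paneth cell genes had no call among 16 and endothelial genes none among 20, with 2 and 3 at an unadjusted limma p under 0.05. Of 19 enteric neuron and glia genes 1 rose, Tac1, the precursor of substance P, by 1.73 ± 0.31, and of 21 complement and coagulation genes Plaur. How far such tissue takes part in the changes above was not tested.

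DSS 1 alone against the 3 water arrays, a comparison added after the data were seen that assumes DSS 1 varies like the water arrays, gave 27 calls, 24 higher and 3 lower, of which 14 were also called with all 6 arrays. Among them were Clca4b at 5.76, Il1b at 4.42, Lilrb4a at 4.31, Il1a at 4.29, Ccl3 at 4.20, Hspa8 at 3.57, Ifi205 at 3.54, Egln3 at 3.31 and Mmp10 at 3.06. Cxcl9 at 4.36 and Cxcl11 at 3.99 were called here and not with all 6 arrays, as DSS 3 lay near water for both. Also called only here were ND6 at 5.64, Chp1 at 4.00 and further genes, among them small RNA and predicted genes such as Mir101c at 4.13 and Gm10012 at 3.57. The 3 lower were Sycn at -4.57, Rnf5 at -3.99 and Tpcn1 at -3.02, none of them called with all 6 arrays. DSS 1 had a receptor median and SD among those of the water arrays but a higher housekeeping mean, -0.86 against -1.67 to -1.08, so it does not match them in all measures. Without DSS 1, 2755 genes were called, and all 641 genes called with the 6 arrays were among them. The called genes named by the rules given with the methods or listed above, 122 in all, kept their direction. This was fixed in advance, because their groups did not overlap and leaving out an array cannot then change the sign. The fit without DSS 1 holds no treated array with water-like measures, so it cannot tell treatment and the shift apart.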

How the data were processed

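Whole-colon RNA of 12 mice was labelled with biotin and run on Affymetrix arrays. The authors deposited log2 values of 31693 probe sets centred on the median of the 12 arrays; their software, background correction and normalization are not stated in the sources used here, and signal over background is unknown, so the number of arrays limits precision. The log base (2) and direction were assumed. Of the probe sets, 22586 carried 1 gene symbol, 1756 several and 7351 none in GEO's annotation; those with 1 were averaged to 21314 genes, 1031 of them with more than 1 probe set, and 22406 had an identifier in RefSeq's table. No 2 arrays were identical. Groups came from genotype and treatment labels, and replicate numbers only name mice in a group.

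The 3 DSS and 3 water arrays went into a limma fit (version 3.58.1, R 4.3.3; lmFit and eBayes, two-sided, Benjamini-Hochberg adjustment, calls at adjusted p under 0.05). The fit was tested on simulated data with independent noise and no array-wide shift, so that test says nothing about the shift. Named are the 12 called, non-overlapping genes that moved most upward and downward (11 lower), passing over predicted genes, clones, small RNA, smell and immune receptor genes; per list up to 5 called members, or the 2 of smallest p, with up to 2 uncalled; and Parp1. The members, the 48 lists (1104 entries, 1002 measured) and the tests were chosen with earlier results of these data known, so lists got no test. Alternatives were other normalizations, robust fits, array weights, all 12 arrays, a covariate, gene filters, thresholds and leaving out each array. Promoters came from RefSeq (GRCm38.p6). Python 3.11.15, pandas 2.3.3 and matplotlib 3.10.9 were used.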

Additional observations from a re-analysis of the deposited data

Results flagged for a closer look

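Probe sets with several gene symbols or none lay outside the comparison of named genes. Of 9107 such probe sets 168 were called by limma in DSS against water, or 1.84%, with 155 higher and 13 lower. This is a signal in data that the comparison above did not use, and it names no gene.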

How the results depend on the processing

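The count of called genes, 641, was within 1.5 times of that with array medians set equal (791), robust moderation (589), predicted and receptor genes left out (618), every probe set tested on its own (672) and a log2 difference of at least 1 (641). It was 343 after quantile normalization, 4993 with array weights, 2781 with the 4 groups of 12 arrays in 1 model, 282 with the receptor median as a covariate (152 shared), 90 at an adjusted p under 0.01 and 27 with DSS 1 alone against water, the last chosen after seeing the data. Leaving out each array in turn gave from 0 (without water 3 or DSS 2) to 2755 (without DSS 1). Of the 122 called genes considered by name none reversed in these fits. Their groups did not overlap, so a reversal was not possible with arrays left out or reweighted, or with DSS 1 alone. Fits with rescaled values or the covariate could have shown one. Of the 122 genes, 40 were not called after quantile normalization, 75 with the covariate and 122 without water 3 or DSS 2. The causes were not tested. With the covariate the medians of the NF-kappaB, complement, colonocyte, junction, cell cycle, endothelial, respiratory chain, fatty acid oxidation, immunoproteasome, proteasome, enteroendocrine, retinoic acid and clock lists turned negative, and those of the T and NK, mast cell, oxidase, enteric neuron and pancreas lists positive. After quantile normalization those of smooth muscle, enteroendocrine, retinoic acid and clock genes turned negative and that of T and NK genes positive. No paired analysis was possible because the labels give the mice of the 2 groups no shared numbers.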
